A study of Rattus norvegicus with 8 samples.

Results

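The Hedgehog pathway was followed in sorted rat brain cells through 10 genes: the ligand Shh, the co-receptors Boc, Cdon and Gas1, the receptor Ptch1, the ligand-binding inhibitor Hhip, the signal transducer Smo and the transcription factors Gli1, Gli2 and Gli3. A probe set was kept if the platform annotation gave it exactly 1 of these genes. This left 10 probe sets of 31142 tested, 8 on the array type called chip A and 2 on chip B, for 8 of the 10 genes. Gli3 and Ptch1 had no such probe set and were not analysed here. The genes were selected on their ratios in these same arrays, since Boc, Gli1 and Gli2 had raised ones, so the members' values are a description and carry no test.

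The cells came from the brain of Rattus norvegicus at postnatal day 7 and were isolated with a cell sorter as positive for OTMP and for A2B5, a ganglioside carried by glial precursors. The labels call them perineuronal oligodendrocytes, which lie against nerve cell bodies. There were 4 biological replicates, each read on both array types, and no control group. The strain, the sex and the number of animals per replicate are not given in the sources used here. Spread and p-values therefore concern these replicates only. Each value divides the signal of a probe set by that of an unnamed reference, so a ratio of 1 means the same signal as there. Ratios of exactly 1 were common on chip B (22.951%) and rare on chip A (0.914%). Whether these are measured values was not tested, and some chip B probe sets described below hold them, as Hhip and Dhh do in replicate 4. Brightness cannot be read from a ratio, nor can detection of the transcript, and ratios of different probe sets do not rank their expression.

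Hedgehog proteins are secreted ligands that bind Ptch1 with the help of Boc, Cdon or Gas1. Binding lifts the inhibition that Ptch1 exerts on Smo in the primary cilium, and Smo then turns the Gli proteins from repressors into activators of transcription. Gli1 and Ptch1 are themselves classic target genes of the pathway. In the developing nervous system Shh patterns the ventral neural tube, is needed for the first oligodendrocyte precursors there, and drives division of cerebellar granule cell precursors. Astrocytes of the mature brain also express several of these genes.

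Pairs of replicates had correlations over probe sets of 0.716 to 0.792 (chip A) and 0.710 to 0.786 (chip B), and the median ratio of an array lay between 0.888 and 0.967. The labelled cell type was checked against marker lists, with a gene counted as higher or lower than a ratio of 1 if any of its probe sets was so called by limma at an adjusted p under 0.05. Of the oligodendrocyte precursor markers 1 of 8 measured was higher (Pdgfra) and 1 was lower, and of the myelinating oligodendrocyte markers 0 of 13 were higher and 6 were lower. Among astrocyte markers 14 of 16 had a higher probe set and 3 a lower one, and among neuron markers 7 of 13 had a higher and 3 a lower one. Of the ependyma and choroid plexus markers 3 of 5 had a higher and 1 a lower probe set, and of the radial glia and neural stem cell markers 4 of 10 a higher and 2 a lower one. Of all 13810 named genes, 9.23% had a higher and 37.7% a lower probe set. A ratio near 1 does not show that a marker was absent, since the reference itself may hold such cells.

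Boc, Gli2 and Gli1 stood far above the reference, Smo moderately so, while the Gas1, Shh, Cdon and one of the Hhip probe sets stood below it. Of the 8 chip A probe sets 3 were called higher, against 9.21% of all chip A probe sets, and 4 were called lower, against 30.1%. Of the 2 on chip B 1 was called higher, against 5.08%, and 0 lower, against 27.1%. These calls come from the contrast that chose the genes, and nothing is read from them. After each array was centred on its median the same 8 probe sets were called, where 11.8% of chip A probe sets were higher and 23.3% lower, and 5.68% and 23.7% on chip B. Against the 95th percentile of genes from other organs on each array, Boc, Gli2 and Gli1 were called, as were 2.9% of chip A and 4.04% of chip B probe sets.

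**Figure D1:**
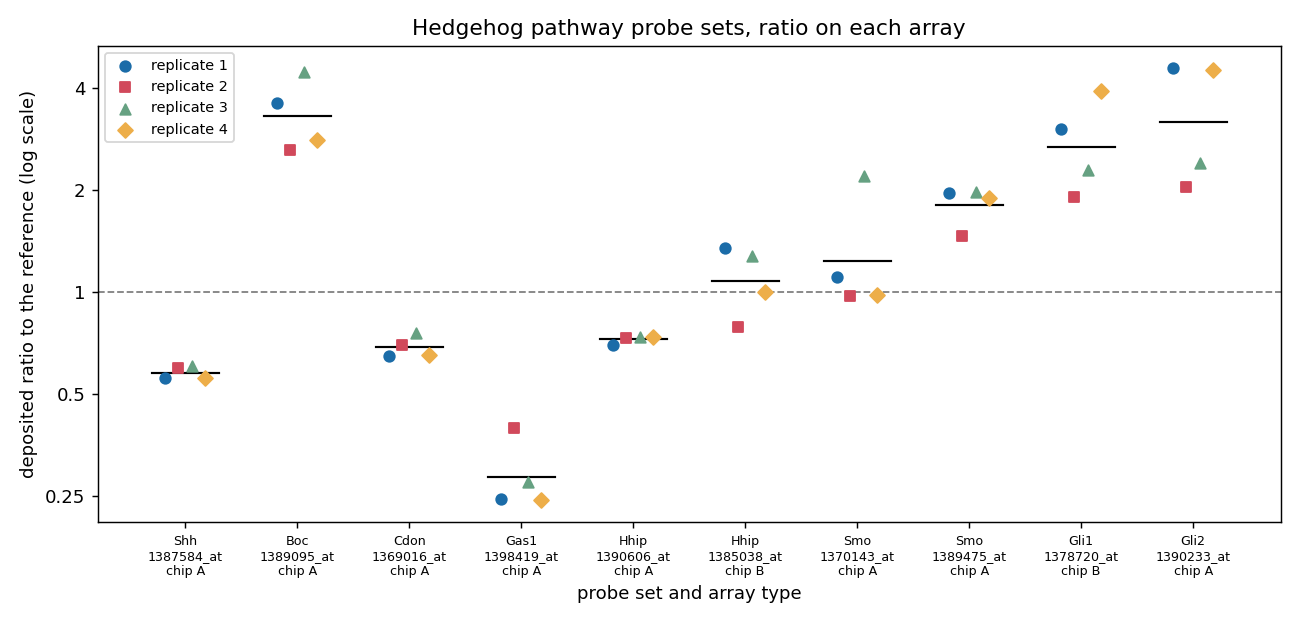
Deposited ratio (log scale) of each Hedgehog probe set on the 4 arrays of its type. Symbols are replicates, black bars geometric means and the dashed line a ratio of 1. Boc, Gli1 and Gli2 lie above 1.9 on every array, and Gas1 lies below 0.4 on every array.

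Shh, the ligand, had ratios of 0.558, 0.597, 0.604 and 0.556 in replicates 1 to 4 on chip A. The arrays were nearly even, with a mean log2 ratio of -0.79 ± 0.06 (SD, n = 4), and 11.3% of chip A probe sets had a lower mean. The other ligands were near the reference. Dhh stood at -0.16 ± 0.34 (limma adjusted p = 0.429) and Ihh at -0.05 ± 0.05 (limma adjusted p = 0.410), both on chip B. A ratio below 1 for Shh does not tell whether these cells transcribed the gene.

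The 3 co-receptors parted. Boc, a transmembrane protein of the immunoglobulin superfamily that binds Hedgehog ligand, had ratios of 3.59, 2.61, 4.45 and 2.80 in replicates 1 to 4. Each array therefore held more than 2.6 times the reference signal, with a mean log2 ratio of 1.72 ± 0.35 (SD, n = 4) and a geometric mean ratio of 3.29. This placed Boc at rank 157 of 15866 chip A probe sets. Its closest relative Cdon had ratios of 0.647, 0.696, 0.755 and 0.652, so that no array reached the reference (as for 39.1% of chip A probe sets), and a mean log2 ratio of -0.54 ± 0.10. Gas1, a membrane-anchored co-receptor, had the lowest values of the set at 0.245, 0.396, 0.276 and 0.243. Its mean log2 ratio of -1.82 ± 0.33 was near the bottom of chip A, with 0.422% of probe sets below it. The ranges of Boc and of the other co-receptors did not overlap, but Boc was chosen for its raised ratio, so nothing is read from this.

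Hhip, a membrane protein that binds Hedgehog ligands and limits their reach, was measured by a probe set on each array type, and these differed. The chip A probe set gave 0.696, 0.733, 0.737 and 0.738, a mean log2 ratio of -0.46 ± 0.04. The chip B probe set gave 1.35, 0.787, 1.28 and 1, a mean of 0.11 ± 0.36. The ranges of the 2 Hhip probe sets did not overlap, and the chip A one varied less between replicates than 99% of probe sets, with 0.908% having a smaller SD.

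Smo, the transmembrane protein that carries the signal across the ciliary membrane, had a pair of probe sets on chip A. The probe set 1389475_at gave 1.95, 1.46, 1.97 and 1.89 in replicates 1 to 4, a mean log2 ratio of 0.85 ± 0.20 and a geometric mean ratio of 1.80. All 4 arrays lay above 1, as for 12.6% of chip A probe sets. The probe set 1370143_at gave 1.105, 0.975, 2.195 and 0.976, a mean of 0.30 ± 0.56. On 3 of its arrays it was close to the reference, and replicate 3 alone reached the level of the other Smo probe set.

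Both Gli genes with a probe set stood high. Gli2, the main activator at the start of a Hedgehog response, had ratios of 4.58, 2.04, 2.40 and 4.51 in replicates 1 to 4 on chip A. Replicates 1 and 4 held about the same high value and replicates 2 and 3 a lower one, all above 2, with a mean log2 ratio of 1.67 ± 0.61 (SD, n = 4) and rank 172 of 15866. Gli1, an activator that is itself switched on by Gli proteins, had ratios of 3.02, 1.91, 2.29 and 3.91 on chip B. Here too replicates 1 and 4 were the high ones, and the mean log2 ratio was 1.42 ± 0.45, rank 162 of 15276. The geometric mean ratios were 3.17 for Gli2 and 2.68 for Gli1. Leaving out any 1 replicate kept the mean log2 ratio between 1.49 and 1.88 for Gli2, between 1.24 and 1.59 for Gli1 and between 1.57 and 1.83 for Boc.

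**Figure D2:**
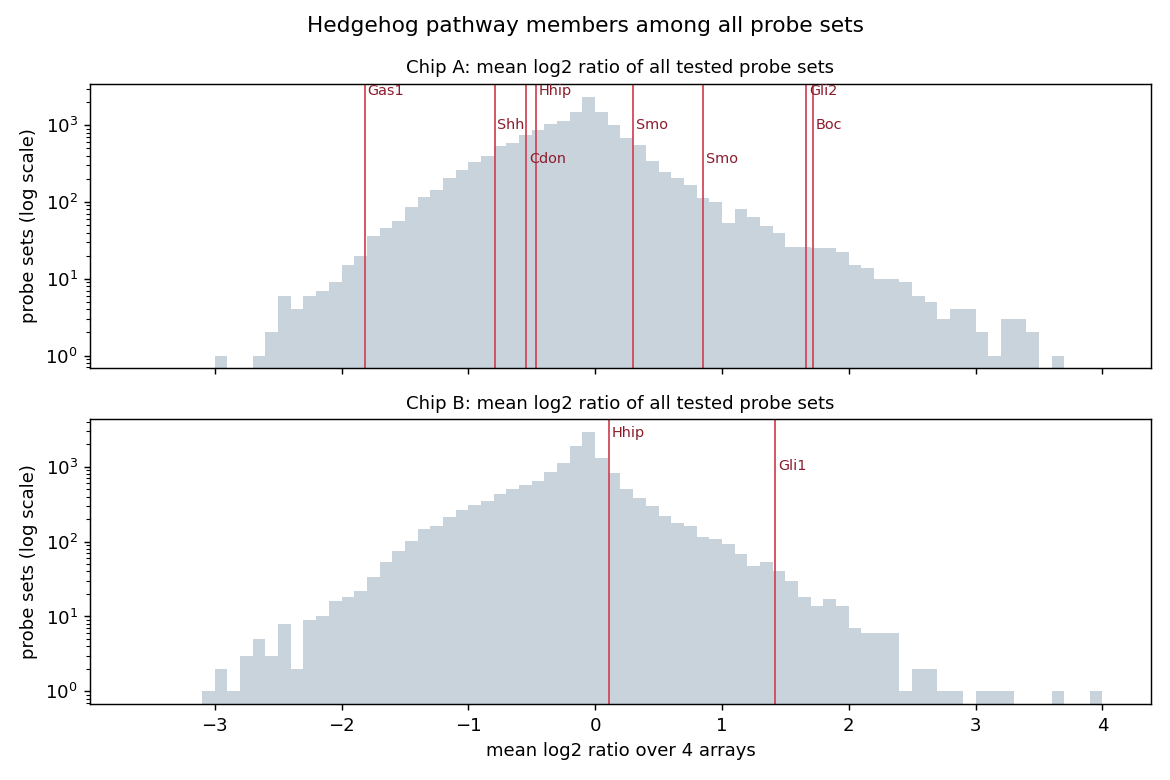
Histograms of the mean log2 ratio over 4 arrays for all tested probe sets of chip A (top) and chip B (bottom), with counts on a log scale. Red lines mark the Hedgehog probe sets, with Boc (1.72), Gli2 (1.67) and Gli1 (1.42) in the upper tail and Gas1 (-1.82) in the lower tail.

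Put in order of mean log2 ratio, the probe sets ran Boc, Gli2, Gli1, the higher and then the lower Smo probe set, Hhip on chip B, Hhip on chip A, Cdon, Shh and Gas1. From Boc down to Hhip on chip B each probe set's range over its 4 arrays overlapped that of the next. Within each of the 4 replicates, though, Gli2 was above Gli1 and Gli1 above the higher Smo probe set, differences that were not tested. Ranges did not overlap between the 2 Hhip probe sets, between Cdon (0.647 to 0.755) and Shh (0.556 to 0.604), or between Shh and Gas1 (0.243 to 0.396). This is an order of ratios, not of transcript levels.

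The promoter windows of the raised members Boc and Gli2 are shown, because Gli proteins act on DNA, together with that of Ptch1, the only member window that held the Gli binding letters. RefSeq windows of assembly GRCr8, running from 250 bases before to 50 bases after the start of the gene, were given for 7 of the 10 genes, and not for Gli1, Gas1 or Shh. They were searched on both strands for GACCACCCA, the core of the Gli site, whose reverse complement is TGGGTGGTC. The exact letters occurred in 129 of 33469 windows, or 0.385%. The Ptch1 window held them at positions 79 to 87, with GACCACCCA on the strand opposite to the gene. Allowing 1 mismatch, 7.33% of windows held a match, and those of Boc, Cdon, Gli2, Gli3, Smo and Hhip did not. A match is a string of letters and not a shown site, and Ptch1 itself was not measured here. The first 250 bases of each window are given 5′ to 3′ along the gene's strand, with the match in capitals.
Boc, chr11:69628453-69628702, plus strand: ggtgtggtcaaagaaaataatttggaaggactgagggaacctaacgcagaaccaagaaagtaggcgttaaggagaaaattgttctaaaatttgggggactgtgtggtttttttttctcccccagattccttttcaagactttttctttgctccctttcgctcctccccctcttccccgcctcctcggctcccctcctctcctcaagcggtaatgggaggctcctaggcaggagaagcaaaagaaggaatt
Gli2, chr13:32716419-32716668, minus strand: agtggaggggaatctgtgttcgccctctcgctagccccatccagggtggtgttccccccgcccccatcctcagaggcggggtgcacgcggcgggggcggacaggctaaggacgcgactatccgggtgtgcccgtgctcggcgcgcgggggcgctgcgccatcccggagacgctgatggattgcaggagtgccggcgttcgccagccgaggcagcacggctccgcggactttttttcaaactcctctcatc
Ptch1, chr17:1555321-1555570, plus strand: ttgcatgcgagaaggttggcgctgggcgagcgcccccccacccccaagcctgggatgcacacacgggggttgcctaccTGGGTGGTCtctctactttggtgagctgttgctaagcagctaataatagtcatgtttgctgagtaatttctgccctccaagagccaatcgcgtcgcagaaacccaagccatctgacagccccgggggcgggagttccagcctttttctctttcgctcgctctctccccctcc

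The replicates also differed from each other. The order of arrays is not independent of the choice of raised genes, since its shares differ between all probe sets and those called higher. Same-numbered chip A and chip B arrays deviated together over 100 shared probe sets, with r from 0.736 to 0.823, so replicates can be followed across the array types. Gli1 and Gli2, on different array types, both had their 2 highest values in replicates 1 and 4. That order was found in 12.5% of all chip A probe sets and 25% of those called higher, and in 11% and 20.5% on chip B. Boc and both Smo probe sets had their 2 highest values in replicates 1 and 3, an order seen in 15.1% of chip A probe sets and 24.6% of those called higher. The order of arrays in Boc was thus unlike that in Gli1 and Gli2, although all of them lay well above the reference.

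Marker lists moved between the replicates too, each gene being taken by its highest probe set. The median ratio of the 13 neuron markers was 2.25, 1.28, 1.39 and 1.73 in replicates 1 to 4, highest in replicates 1 and 4 as for Gli1 and Gli2. The level of this list depends on the probe set taken, since the median of the mean log2 ratios was 0.70 with each gene's highest probe set and -0.02 with its median one. The median ratio of the 6 cerebellar granule cell precursor markers was 1.66, 0.997, 0.995 and 1.23, again highest in replicates 1 and 4. Of these 6 genes 1 had a higher probe set and 1 a lower one. Within that list Zic1 was below the reference on every array, at 0.53 to 0.549. Neurod1 had 4.74, 0.907, 3.23 and 2.49, highest in replicates 1 and 3. Pax6 and Mycn are also among the target genes below, and Zic1 and Zic2 among the further pathway genes. The granule cell precursor list is thus not separate from the Hedgehog lists. The median of the 16 astrocyte markers was 2.72, 2.17, 2.72 and 2.12, highest in replicates 1 and 3 as for Boc and Smo. The 9 microglia markers had that order as well, with medians of 0.72, 0.664, 0.988 and 0.609, all below the reference. The 8 oligodendrocyte precursor markers had medians of 0.859, 0.548, 1.16 and 1.07, highest in replicates 3 and 4. Single markers of a list varied. The order of Gli1 and Gli2 was held by 5 of 20 neuron probe sets (25%), the same share as among chip A probe sets called higher (25%). Another 4 of the 20 were highest in replicates 2 and 3. Of the granule cell precursor probe sets 3 of 6 had the order of Gli1 and Gli2, those of Pax6 and Mycn among them. On chip A 12.5% of all probe sets and 25% of those called higher had it. The order of Boc was held by 10 of 25 astrocyte and 6 of 11 microglia probe sets. Its chip A shares were 15.1% of all probe sets, 24.6% of those called higher and 10.4% of those called lower. The lists are short, and no link between a cell type and a member is read from these counts. The part of these cell types in the Hedgehog values was not tested, and in a sorted bulk sample more cells of a type and more RNA per cell cannot be told apart.

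Of the lower members, Shh, Cdon and Gas1 each had their 2 highest ratios in replicates 2 and 3, and Hhip on chip A in replicates 3 and 4. On chip A the order of Shh, Cdon and Gas1 was found in 34.3% of all probe sets, in 58.1% of those called lower and in 83.2% of the 2184 lower ones with an SD of at most 0.1. It was also found in 71.4% of 98 chip A probe sets for genes not expected in brain, such as milk proteins, digestive enzymes and liver enzymes. Of the genes with such probe sets on either array type, 49 of 87 were lower than a ratio of 1 and 1 was higher. The low, even ratios of Shh and Cdon therefore have the array order that is common among probe sets for genes of other organs, and whether these probe sets detected their transcripts was not tested.

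**Figure D3:**
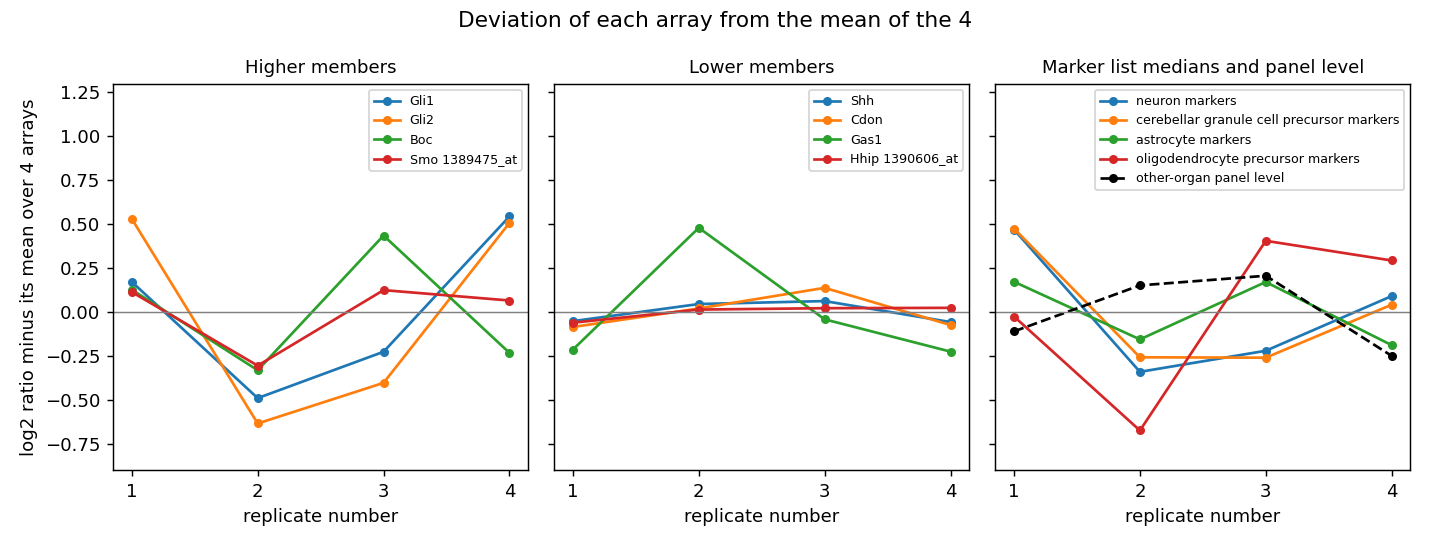
Log2 ratio minus its mean over the 4 arrays, by replicate number, for the higher members (left), the lower members (middle) and the median of 4 marker lists with the 95th percentile of the other-organ panel (right). Lines only join the values of 1 item. Gli1 and Gli2 are highest in replicates 1 and 4, as are the neuron and granule cell precursor medians. Of single neuron probe sets 5 of 20 had that order. The granule cell precursor list shares Pax6, Mycn, Zic1 and Zic2 with the Hedgehog lists.

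The rest of the pathway held genes on both sides of the reference. Of 76 further components listed, from ligand release to Gli turnover, 62 were measured: 8 had a higher probe set (12.9%, against 9.23% of all named genes) and 22 a lower one (35.5%, against 37.7%). The median log2 ratio, taking each gene's highest probe set, was -0.05, against -0.08 over all named genes. Centring the arrays on their medians put these at 0.06 and 0.03. The shares are near the background, and no statement on the pathway as a whole follows from them.

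The 8 higher genes were led by Disp3, Gpr161 and Gpc6. Gpr161, a ciliary receptor that holds the pathway off through cyclic AMP, had ratios of 3.16, 2.31, 2.96 and 2.41, a mean log2 ratio of 1.43 ± 0.22 (limma adjusted p = 0.000293). Tulp3, which carries receptors such as Gpr161 into the cilium, stood at 0.70 ± 0.17 (limma adjusted p = 0.00223), and its chip B probe set at 0.19 ± 0.13. The glypican Gpc6, a heparan sulfate proteoglycan of the cell surface, was higher on both array types, with 1.36 ± 0.55 on chip A (limma adjusted p = 0.00561) and 1.26 ± 0.19 on chip B (limma adjusted p = 0.000479). The remaining Gpc6 probe set stood at 0.01 ± 0.06. Gpc4, another glypican, stood at 0.78 ± 0.08 (limma adjusted p = 0.00037).

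Disp3, a relative of the Hedgehog-releasing protein Disp1, had the highest mean of the list with ratios of 3.36, 2.02, 3.53 and 3.05, at 1.55 ± 0.37 (limma adjusted p = 0.00174). Its other probe set was at -0.03 ± 0.06. Disp1 itself stood at -0.05 ± 0.07 (limma adjusted p = 0.613). Disp2, another relative, stood at 1.15 ± 0.70 (limma adjusted p = 0.0224), and the ciliary dynein Dync2h1 at 0.50 ± 0.34 (0.0384). The ciliary kinesin Kif7, which regulates Gli proteins, stood at 0.46 ± 0.28 (limma adjusted p = 0.0453). These last calls were unsteady. Disp2 was lost without replicate 1 (limma adjusted p = 0.0629), 3 (0.0784) or 4 (0.075), Dync2h1 without replicate 1 (0.0554), 3 (0.0988) or 4 (0.0682), and Kif7 without replicate 1 (0.162), 2 (0.138) or 3 (0.12). A trended, robust prior also ended the calls of Dync2h1 (limma adjusted p = 0.0586) and Kif7 (0.0919).

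Among the lower genes was Sufu, which holds Gli proteins inactive in the cytoplasm. Its ratios were 0.519, 0.534, 0.573 and 0.572 on chip B, a mean log2 ratio of -0.87 ± 0.07 (limma adjusted p = 0.00025). Such low, even ratios were common there, with an SD of at most 0.1 in 2737 of the 4142 lower chip B probe sets. The receptor kinase Grk3, of a family that phosphorylates Smo, stood at -1.06 ± 0.07 (limma adjusted p = 0.000185), the casein kinase Csnk1g1 at -0.93 ± 0.13 (0.000533) and the zinc finger factor Zic1 at -0.90 ± 0.02 (0.00024). Others were lower in only some of their probe sets. Csnk1g3 ran from -1.61 ± 0.05 (limma adjusted p = 9.73e-05) to 0.00 ± 0.24 over 5 probe sets, and Csnk1e from -1.36 ± 0.07 (0.000112) to -0.16 ± 0.19. Scube1 ran from -1.29 ± 0.06 (limma adjusted p = 0.000119) to -0.03 ± 0.28, Smurf1 from -1.06 ± 0.07 (0.000135) to -0.15 ± 0.18 and Cul3 from -1.04 ± 0.06 (0.000184) to -0.25 ± 0.37. The lowest probe sets of Grk3, Zic1, Csnk1g3, Csnk1e, Scube1 and Cul3, all on chip A, were highest in replicates 2 and 3. That order was found in 71.4% of the chip A probe sets for genes of other organs. It was also found in 58.1% of all lower chip A probe sets, and in 83.2% of those with an SD of at most 0.1. Whether the low probe sets of the genes named here, Sufu among them, detected their transcripts was not tested. The ligand-binding receptor Lrp2 at 0.07 ± 0.19 (limma adjusted p = 0.603) and the kinase Stk36 at -0.05 ± 0.13 (0.573) did not pass. Scube2 was not analysed here.

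Genes known as Gli targets or outputs in some tissue stood on both sides of the reference. Of 43 listed 33 were measured, of which 5 had a higher probe set (15.2%, against 9.23% of all named genes) and 10 a lower one (30.3%, against 37.7%), with Igf2 and Irx3 in both counts. The list's median log2 ratio was -0.03, against -0.08 over all named genes. These shares are near the background, and no statement on the output of Gli proteins follows from them. The list also counts Pax6, which Shh represses in the ventral neural tube. The cyclin gene Ccnd2, a cell cycle target in granule cell precursors, had ratios of 2.49, 1.68, 1.62 and 2.27, a mean of 0.99 ± 0.31 (limma adjusted p = 0.00292). Its high arrays were replicates 1 and 4, as for Gli1 and Gli2. Pax6 and the higher Irx3 probe set had that order too, and the highest probe sets of Tgfb2 and Igf2 did not. It was found in 25% of chip A and 20.5% of chip B probe sets called higher, so nothing is read from it. Mycn, another target in granule cell precursors, had 1.43, 0.999, 1.001 and 1.25, at 0.21 ± 0.25 without passing (limma adjusted p = 0.205).

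Pax6, a patterning factor that Shh represses in the ventral neural tube, was the highest of the list at 1.36 ± 0.30 (limma adjusted p = 0.000791). After Ccnd2 came Tgfb2, at 0.92 ± 0.59 for its highest probe set (limma adjusted p = 0.0269), with 3 of its 4 probe sets called. The call of that probe set was lost without replicate 1 (limma adjusted p = 0.135) or 4 (0.0941). Irx3 was split, at 0.79 ± 0.46 (limma adjusted p = 0.0378) and -1.46 ± 0.05 (6.63e-05), and its higher call was lost without replicate 1 (0.102), 2 (0.0507) or 4 (0.127) and with a trended, robust prior (0.05004). Igf2 was split likewise, at 0.84 ± 0.39 (limma adjusted p = 0.0104) and -1.73 ± 0.06 (9.73e-05).

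The lineage factors downstream of Shh in the ventral neural tube stood near the reference or below it. Nkx2-2 was at -0.39 ± 0.40 (limma adjusted p = 0.164), and the lower Olig2 probe set at -0.43 ± 0.12 passed (0.00624) while the other, at -0.03 ± 0.03, did not. Foxa2, the floor plate factor, was lower at -1.15 ± 0.06 (limma adjusted p = 0.000142). Of the Ccnd1 probe sets 1 of 3 was lower, at -0.32 ± 0.14 (limma adjusted p = 0.0262), a call lost without replicate 1 (0.094), 2 (0.0872) or 4 (0.0599) and after centring (0.0761). Of the Sox2 probe sets 1 of 4 was lower, at -0.61 ± 0.05 (limma adjusted p = 0.00113). Foxf1 ran from -1.85 ± 0.15 (limma adjusted p = 0.000102) to 0.07 ± 0.19, and the axon guidance gene Ntn1 from -1.60 ± 0.06 (9.89e-05) to 0.18 ± 0.67. The lowest probe sets of Foxa2, Sox2, Foxf1, Ntn1 and Igf2, all on chip A, were also highest in replicates 2 and 3. That order was common among chip A probe sets for genes of other organs (71.4%) and among all lower ones (58.1%). Whether these lowest probe sets detected their transcripts was not tested. Bcl2 at -0.09 ± 0.05, Foxm1 at 0.23 ± 0.37 and both Igfbp6 probe sets did not pass.

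**Figure D4:**
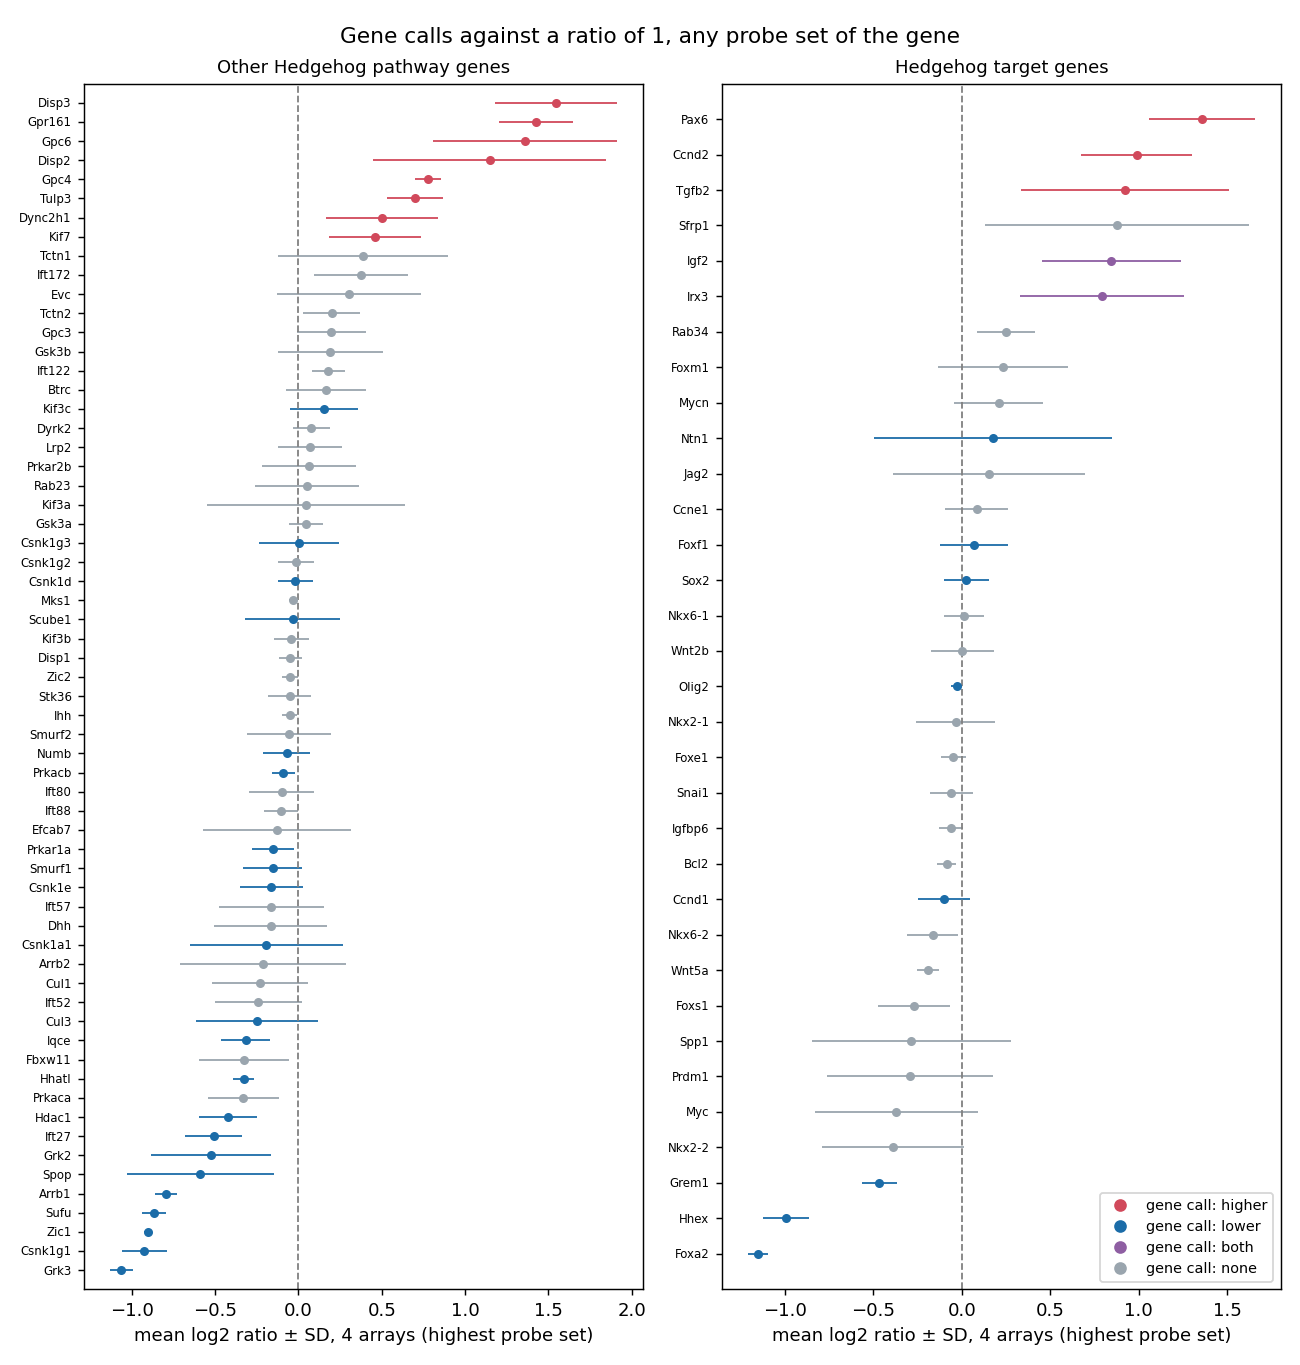
Mean log2 ratio ± SD over 4 arrays of each measured further pathway gene (left) and target gene (right), shown by its highest probe set, with colours for the gene's calls over all its probe sets. Blue points near 0 are genes called lower by another probe set; Disp3 (1.55) and Pax6 (1.36) are at the top.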

How the data were processed

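Total RNA was purified on Qiagen columns and biotin-labelled following an Affymetrix small-sample method, per the labels. RMA (background correction, quantile normalization, probe set summary) is the tool that the submitters' processing notes name, and no version stands beside it. The deposited numbers are linear ratios, judging by their range of 0.01 to 34.3 around 1. How the reference was formed: not given in the sources used here. Ratios were put on the log2 scale. After 57 control probe sets were left out of each array type, 15866 (chip A) and 15276 (chip B) probe sets were tested. Genes were named from the platform annotation, where 12783 and 7564 probe sets had 1 symbol, 312 and 100 had several and 2771 and 7612 had none.

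The test was limma 3.58.1 in R 4.3.3 (an intercept and eBayes, two-sided against a ratio of 1), with p-values adjusted by Benjamini-Hochberg per array type and a threshold of 0.05, tested on simulated data. With 98 panel probe sets on chip A but 6 on chip B, each chip B array took its panel level from the chip A array sharing its number, shifted by how the 100 shared probe sets differed at the median. The 2 array types hold different probe sets and were fitted apart. The replicate numbers in the titles pair the arrays across types (r from 0.736 to 0.823 over 100 shared probe sets). The number of arrays, 4 of each type, limits the precision. Named were all members, some pathway and target genes chosen for their role, and those with the largest called values (up to 8 higher and 8 lower pathway genes, up to 5 higher and 5 lower targets). The members and lists were chosen with earlier results of these data known. Alternatives were centring, a trended robust prior, the 95th percentile of the other-organ panel as the level, log2(ratio + 0.1), a filter at a ratio of 0.1, the median probe set of each gene, and leaving out each replicate.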

Additional observations from a re-analysis of the deposited data

Results flagged for a closer look

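In 9 of 82 probe sets of the named genes, 1 array stood apart from the other 3 by Dixon's criterion, which chance meets in about 1 of 20 groups. On these arrays as a whole 5.48% of chip A and 7.4% of chip B probe sets met it. Among the Hedgehog members, Smo probe set 1370143_at stood apart in replicate 3 with a ratio of 2.195, and Smo probe set 1389475_at in replicate 2 with 1.46. Hhip on chip A stood apart in replicate 1 with 0.696, within a range that ended at 0.738. Zic1 stood apart in replicate 3 with 0.549 and Tgfb2 in replicate 2 with 1.03. On chip B the array of replicate 1 was the low one in Dhh at 0.628, in Stk36 at 0.775 and in both Olig2 probe sets at 0.656 and 0.947.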

How the results depend on the processing

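The 8 calls on member probe sets kept their direction and their side of the threshold under centring, the trended robust prior and log2(ratio + 0.1). The same held with the filter at 0.1 and without any 1 replicate. Boc, Gli1 and Gli2, though not Smo, also lay above the panel level. The members were chosen on these ratios, so this describes them and lends the calls no support. With the panel level in place of a ratio of 1, the higher calls were 460 rather than 1462 on chip A, 3 rather than 8 among pathway genes (Disp3, Gpr161 and Gpc6) and 2 rather than 5 among target genes (Pax6 and Tgfb2). With each gene's median probe set, 5 pathway genes and 3 target genes were higher and 6 rather than 10 target genes were lower, and the medians of both lists were -0.14 rather than -0.05 and -0.03. Without 1 replicate 5 to 7 pathway genes were higher (5 without replicate 1 or 3). Centring added 0.12 (chip A) and 0.10 (chip B) to the log2 ratios and put the share of higher among all calls at 33.7% rather than 23.5% on chip A and 19.3% rather than 15.8% on chip B. The cause of these shifts was not tested. No paired analysis was possible because each test set the arrays of 1 type against a fixed ratio, with no second group, and no difference between array types was tested. How far a probe set lay above background was not tested, since the files hold ratios and no intensities.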
